A study of Rattus norvegicus with 16 samples.

Results

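The creatine kinases were followed over rat muscle labelled EOM (extraocular) and TA: the cytosolic muscle enzyme Ckm, the cytosolic brain-type enzyme Ckb and the sarcomeric mitochondrial enzyme Ckmt2. Members were all probe sets on the array whose only gene symbol in the platform's probe table was Ckm, Ckb, Ckmt2 or Ak1. This gave 5 probe sets of 3 genes, of 8799 probe sets and 4737 genes with a single symbol on the array. Ckm was read by M10140_at, Ckb by M57664_at and M57664_g_at, and Ckmt2 by X59736mRNA_at and X59736mRNA_g_at. The paired probe sets of Ckb and of Ckmt2 are each named after 1 sequence record, so they are repeated readings of a gene and not independent genes. No probe set matched Ak1, the main adenylate kinase of muscle cytosol, so Ak1 is not analysed here and the values below concern creatine kinases.

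The arrays held RNA of rat skeletal muscle in 3 groups: EOM (4 arrays, no collection time given), TA_6h (muscle labelled TA, collection time 6 hours, 8 arrays) and TA_1h (the same muscle, collection time 1 hour, 4 arrays). The event from which the hours count, and the animals' strain, age, genotype and treatment, are not stated in the labels used here. Arrays of the same group and number were averaged as 1 sample, giving 4 EOM, 4 TA_6h and 2 TA_1h samples; the TA_6h arrays 1 and 2, which carry no letter, were joined with 1b and 2b by inference. Whether a number stands for an animal is not stated, and the p-values cover only the variation among these samples, technical or not.

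Creatine kinase moves the terminal phosphate of ATP to creatine and back. In striated muscle Ckmt2, bound to the outer face of the inner mitochondrial membrane, makes phosphocreatine from the ATP that the adenine nucleotide carriers export, and Ckm, at the M band and at the calcium pumps of the sarcoplasmic reticulum, returns the phosphate to ADP during contraction. Ckb is the form of brain, smooth muscle and immature muscle, and its share falls as skeletal muscle matures. Adenylate kinases and AMP deaminase deal with the ADP and AMP left when ATP use outruns this buffer.

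Intensities were on a linear scale and had been brought to a common mean on all 16 arrays. Between 2045 and 2235 probe sets lay below 0 on each EOM array and none did on any TA array, so a difference between EOM and TA may be of the muscle or of the way probes were summarised, and these cannot be told apart. On 5 TA arrays (TA_6h 3a, 3b, 4a and 4b, and TA_1h 2b) the middle over 3′ ratio of the beta-actin control, which falls where RNA is degraded or copied short, lay between 0.146 and 0.390, and these are called low-ratio arrays. It lay between 0.891 and 0.978 on EOM arrays and between 0.815 and 1.28 on the other 7 TA arrays. The Gapdh control marked other arrays: its ratio was 0.882 to 0.928 in EOM, 0.959 to 1.52 on the 5 low-ratio arrays, 0.161 to 0.399 on TA_6h 1b and 2b and TA_1h 1a and 2a, and 0.788 to 1.11 on the remaining 3 TA arrays. The controls therefore give no single order of RNA quality. The labels fitted their markers: the 4 extraocular muscle markers Myh13, Myh3, Myh8 and Myl4 summed to 30639 to 37719 on EOM arrays, against 3739 to 17894 on TA_6h and 3028 to 5392 on TA_1h arrays, and all 4 passed the test as higher in EOM against both. The arrays hold bulk RNA, so fewer cells of a type and less RNA per cell cannot be told apart.

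The stretches from which the 3 mRNAs start are shown as a description, since each gene has its own promoter. Whether they bear on the readings was not tested. Each runs from 250 bases before to 50 bases after the RefSeq start on GRCr8, 5′ to 3′ along the gene. Capitals mark CAGCTG (an E-box of the kind bound by myogenic factors), TATAAA and TATATA, searched on both strands, with no overlap between them in these windows. The Ckm window is chr1:88189211-88189510 on the plus strand, the Ckb window chr6:136553415-136553714 on the minus strand and the Ckmt2 window chr2:24845462-24845761 on the minus strand.
Ckm: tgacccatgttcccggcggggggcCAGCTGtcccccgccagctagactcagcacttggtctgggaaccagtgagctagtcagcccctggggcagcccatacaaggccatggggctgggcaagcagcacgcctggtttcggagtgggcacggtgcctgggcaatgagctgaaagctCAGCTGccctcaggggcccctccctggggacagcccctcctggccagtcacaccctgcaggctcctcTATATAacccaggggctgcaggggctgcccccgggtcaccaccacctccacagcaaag
Ckb: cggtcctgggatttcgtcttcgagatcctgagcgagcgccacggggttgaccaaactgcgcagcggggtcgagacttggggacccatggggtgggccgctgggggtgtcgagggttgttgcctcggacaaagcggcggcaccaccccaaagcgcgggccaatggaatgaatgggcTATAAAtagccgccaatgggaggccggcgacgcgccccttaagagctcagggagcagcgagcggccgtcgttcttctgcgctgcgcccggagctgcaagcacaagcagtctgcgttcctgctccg
Ckmt2: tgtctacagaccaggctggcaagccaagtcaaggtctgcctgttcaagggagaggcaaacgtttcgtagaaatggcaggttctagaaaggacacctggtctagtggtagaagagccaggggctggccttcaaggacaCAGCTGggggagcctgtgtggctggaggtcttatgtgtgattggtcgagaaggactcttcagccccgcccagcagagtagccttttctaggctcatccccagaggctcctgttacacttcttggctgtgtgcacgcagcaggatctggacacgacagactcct
The Ckm window held CAGCTG at positions -226 and -75 and TATATA at -8, counted from the start. The Ckmt2 window held CAGCTG at -113, and the Ckb window held TATAAA at -75. Of all 33469 RefSeq promoter windows of this length, 15.1% held CAGCTG, 14.2% TATAAA and 6.15% TATATA. A match describes letters and not a bound site.

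Between EOM and TA_6h, 3 of the 5 creatine kinase probe sets passed the test (limma, adjusted p under 0.05 over 7640 probe sets), Ckm and one Ckb probe set higher in EOM and the other Ckb probe set lower, where 47.2% of all tested probe sets were called. Between EOM and TA_1h, 1 of 5 passed, the same Ckb probe set that was higher against TA_6h, where 37.2% were called. The members' median log2 difference was 0.68 against TA_6h and 0.65 against TA_1h, beside -0.11 and -0.09 over all tested probe sets. With 5 probe sets, counts this near the background say nothing of the creatine kinases as a set. The EOM comparisons share the EOM arrays, and all 3 comparisons come from 1 fit. The values by array are given next, gene by gene.

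Ckm, the enzyme that returns phosphate to ADP at the myofibrils, read high on every EOM array and varied in TA from under 1 to above every EOM reading. Its intensity was 7863, 9958, 7404 and 12333 on EOM arrays 1 to 4. On TA_6h arrays it was 2974 and 647 (number 1), 929 and 725 (number 2), 0.0219 and 5979 (number 3), and 0.208 and 0.115 (number 4). On TA_1h arrays it was 763 and 5465 (number 1) and 0.0313 and 29046 (number 2). All EOM readings lay above all TA_6h readings, and the EOM range lay inside the TA_1h range. With readings under the floor of 56.5 raised to it, arrays of the same number differed by a median of 5.88-fold, and TA_1h 2b exceeded 2a by at least 514-fold. The same median was 1.10-fold for both Ckmt2 probe sets, 1.20-fold for M57664_at and 1.41-fold for M57664_g_at.

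**Figure D1:**
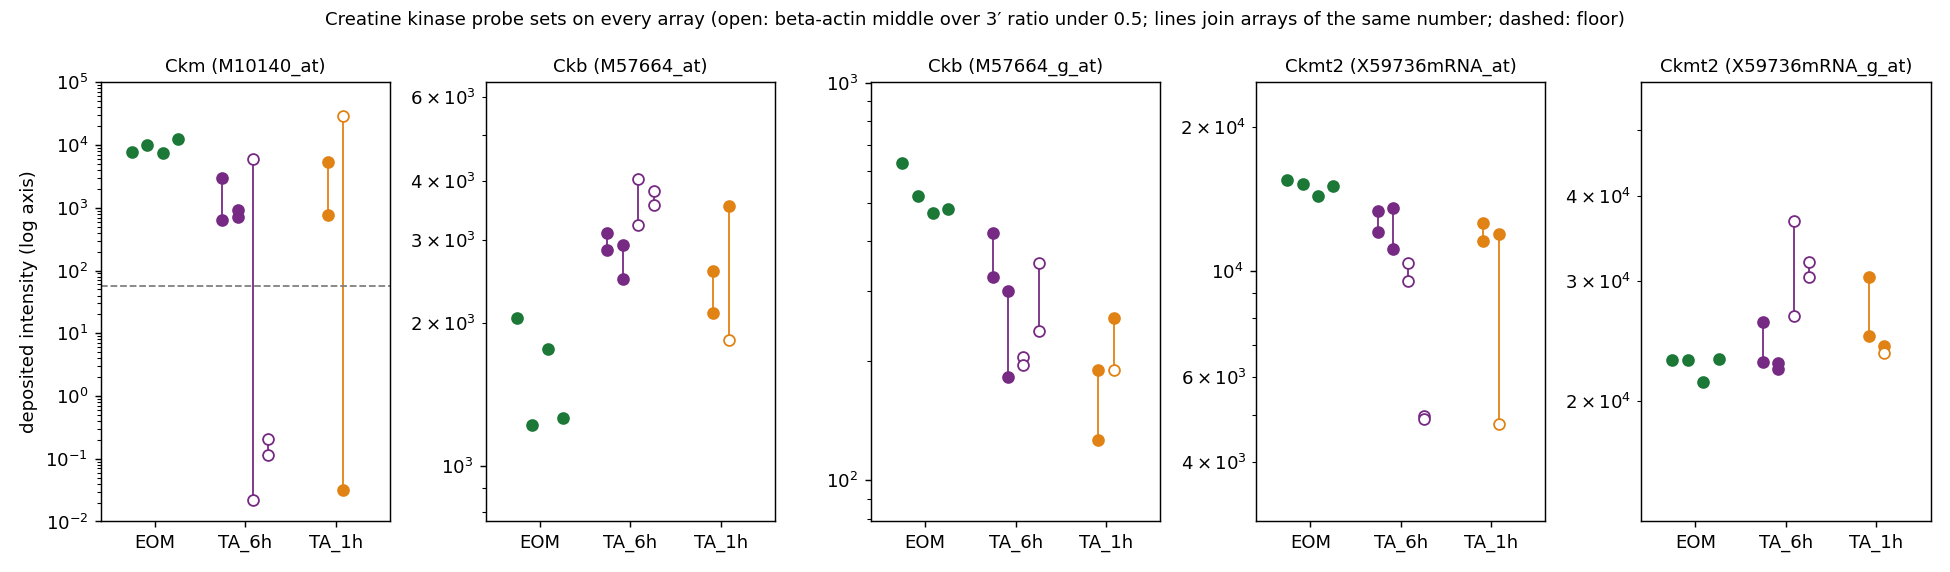
Deposited intensity (log axis) of each creatine kinase probe set on every array, EOM left of TA_6h and TA_1h; lines join arrays of the same number and open points are the 5 TA arrays with a beta-actin ratio under 0.5. Ckm spans 7404 to 12333 in EOM and 0.0219 to 29046 in TA, and the dashed line in its panel is the floor of 56.5.

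Readings under the floor of 56.5, the 25th percentile of all intensities, were raised to it before the test, so 3 of 8 TA_6h and 1 of 4 TA_1h arrays entered with that value for Ckm. On this scale Ckm was 4.39 ± 0.82 (log2, SE; 95% interval 2.55 to 6.23) higher in EOM than in TA_6h, a 20.9-fold difference (limma adjusted p = 0.00175). This SE comes from arrays averaged by number, which leaves out the spread between arrays of the same number. With each array as its own sample the SE was 1.48 (limma adjusted p = 0.0228). With the number as a random block it was 1.72 (limma adjusted p = 0.0478). Mean intensity was 9390 ± 2255 in EOM and 1407 ± 1289 in TA_6h (SD, n = 4 each), a smaller ratio than the fold from averaged logs. It was 8818 ± 8068 in TA_1h (SD, n = 2). Against TA_1h the difference was 2.51 ± 1.01 (0.25 to 4.76) and did not pass (limma adjusted p = 0.0775). Without TA_6h replicate 4, whose arrays both read under the floor, the difference from TA_6h was smaller, 3.40 ± 0.33 (limma adjusted p = 8.06e-05). The TA_6h call was lost without the 5 low-ratio TA arrays (3.11 ± 1.24, limma adjusted p = 0.0795). That fit kept TA_6h numbers 1 and 2, whose arrays read 647 to 2974, below every EOM array. It kept TA_1h number 2 as array 2a alone, which entered at the floor. The call was also lost with that ratio as a batch term (4.21 ± 1.70, limma adjusted p = 0.0506). It held without the 4 TA arrays of low Gapdh ratio (4.07 ± 1.03, limma adjusted p = 0.0108). Against TA_1h the difference was 4.76 ± 1.24 (limma adjusted p = 0.0178) without the low-ratio arrays. TA_1h holds 2b of these, so its number 2 was then array 2a alone, at the floor. With the low-ratio arrays as the only TA arrays, which left 2b alone in TA_1h, the difference was -1.66. Without the arrays of low Gapdh ratio it was -0.45 (limma adjusted p = 0.83).

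Readings this far apart were uncommon on the array. Of 8740 probe sets that are not controls, 17 read under 1 on any TA array, and 4 of these also read over 5000 on another TA array; Ckm was 1 of the 4, and the others have no single gene name in the probe table. All 4 read above the floor on every EOM array. Of the 3 arrays of TA_6h where Ckm read under 1, all were of low beta-actin ratio, while the TA_1h array where it did (2a) was not, and TA_6h 3b and TA_1h 2b, both of low ratio, gave the highest readings of their groups. Acta1, the actin of the thin filament, was chosen after its values were seen: it read 13880 to 19931 in EOM, 94.9 to 24227 in TA_6h and 7.17 to 31652 in TA_1h. The 12 skeletal fibre markers tested included Ckm. They summed to 139964 to 166575 in EOM, 155246 to 335211 in TA_6h and 167762 to 347403 in TA_1h. Against TA_6h, 1 was called higher (Ckm) and 6 lower in EOM. Over all genes, each by its brightest probe set, 22.3% were called higher and 25.8% lower. The part of fibre content in the Ckm readings was not tested.

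Ckb, the brain-type cytosolic form, gave opposite answers from its 2 probe sets, each beyond the spread between samples. On M57664_at it read 2054, 1222, 1765 and 1263 on EOM arrays 1 to 4. It read 3099 and 2849, 2475 and 2931, 4028 and 3227, and 3545 and 3800 on TA_6h numbers 1 to 4, and 2576 and 2107, and 3530 and 1847, on TA_1h numbers 1 and 2. Every EOM reading lay below every TA_6h reading, and EOM 1 exceeded the lowest TA_1h reading. The log2 difference of EOM from TA_6h was -1.06 ± 0.21 (SE; 95% interval -1.53 to -0.59), 2.09-fold lower in EOM (limma adjusted p = 0.00237), with mean intensities of 1576 ± 403 in EOM and 3244 ± 482 in TA_6h (SD, n = 4 each). Against TA_1h the difference was -0.67 ± 0.26 (-1.24 to -0.09) and did not pass (limma adjusted p = 0.0672).

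On M57664_g_at the same gene read higher in EOM. The intensities were 627, 518, 471 and 482 on EOM arrays 1 to 4. They were 420 and 325, 182 and 299, 204 and 195, and 352 and 238 on TA_6h numbers 1 to 4, and 190 and 126, and 256 and 189, on TA_1h numbers 1 and 2. No TA reading reached the lowest EOM reading. The difference was 0.97 ± 0.22 (log2, SE; 0.47 to 1.47) against TA_6h, 1.96-fold (limma adjusted p = 0.00563), and 1.499 ± 0.27 (0.88 to 2.11) against TA_1h, 2.83-fold (limma adjusted p = 0.00208).

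The probe sets thus stood apart from each other by different amounts in the groups. Within an array M57664_at exceeded M57664_g_at by 1.24 to 1.90 on the log2 scale in EOM, by 2.88 to 4.30 in TA_6h and by 3.29 to 4.06 in TA_1h, with no overlap of EOM with either TA group. The gap was 3.29 to 4.30 on the 5 low-ratio TA arrays and 2.88 to 4.06 on the other 7. Without the low-ratio arrays both calls against TA_6h held, at -0.88 (limma adjusted p = 0.0359) for M57664_at and 0.83 (adjusted p = 0.0434) for M57664_g_at. No direction can be given for Ckb mRNA as a whole from these readings. Opposite calls against TA_6h were not particular to Ckb. Among the marker genes, Tagln gave 1.61 on M83107_at and -2.50 on M83107_g_at. Snap25 gave 2.56 on AB003991_at and -0.99 on AB003991_g_at, all called. For Tagln on M83107_g_at only 2 of 4 EOM arrays read above the floor, while both Ckb probe sets did on every array. Other pairs were called in the same direction, such as that of Myl4 (2.81 and 2.55). The share of such pairs over the whole array was not counted.

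Cells other than fibres also express Ckb, and their markers went both ways between EOM and TA_6h. Over all genes, each by its brightest probe set, 22.3% were called higher and 25.8% lower in EOM than in TA_6h. Of 14 nerve and Schwann cell markers tested, 6 were higher and 4 lower. The list summed to 12351 to 15773 in EOM, 6787 to 9433 in TA_6h and 6633 to 8892 in TA_1h. Pmp22, the brightest of these in EOM, read 5833 to 9656 there and 506 to 1378 in TA_6h. Its other probe set was not called (log2 difference 0.07). Ncam1 and Syp read below 0 on all EOM arrays. The 8 markers of smooth muscle and pericytes included 2 that were higher and 5 that were lower. They summed to 14228 to 16024 in EOM, 15232 to 31499 in TA_6h and 16682 to 23949 in TA_1h. Des, which skeletal fibres also express, was the brightest of these, with means of 8891 in EOM, 16410 in TA_6h and 13857 in TA_1h. The sums therefore do not stand for cells other than fibres alone. Cnn1 read below 0 on all EOM arrays. The part of cells other than fibres in the Ckb readings was not tested.

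**Figure D2:**
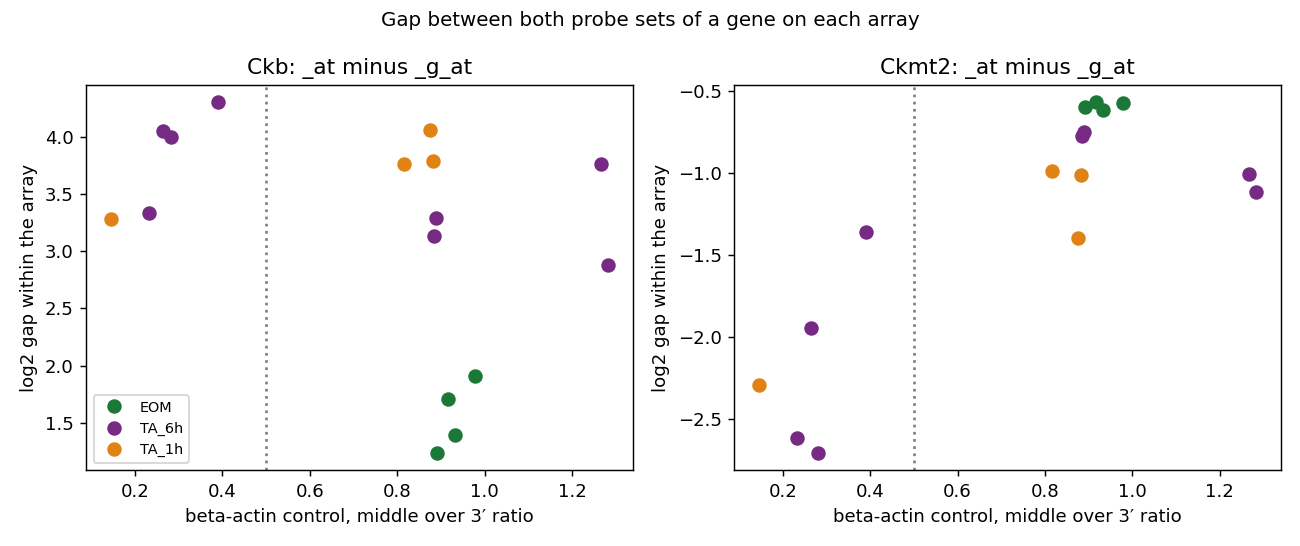
Log2 gap between both probe sets of Ckb (left) and of Ckmt2 (right) within each array, against the middle over 3′ ratio of the beta-actin control; points are arrays coloured by group and the dotted line is a ratio of 0.5. The Ckb gap separates EOM (1.24 to 1.90) from TA (2.88 to 4.30). The Ckmt2 gap is -2.71 to -1.36 on TA arrays of low ratio and -1.39 to -0.75 on the other TA arrays, with a slight overlap.

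Ckmt2, which makes phosphocreatine at the inner mitochondrial membrane, did not pass the test on either probe set in any comparison. On X59736mRNA_at it read 15478, 15169, 14322 and 15077 on EOM arrays 1 to 4. It read 12087 and 13341, 11116 and 13557, 10392 and 9526, and 4972 and 4913 on TA_6h numbers 1 to 4, and 12578 and 11565, and 11942 and 4803, on TA_1h numbers 1 and 2. Every EOM reading lay above every TA reading, and the lowest TA readings were those of TA_6h number 4 and TA_1h 2b. The difference was 0.68 ± 0.30 (log2, SE; 95% interval 0.016 to 1.35) against TA_6h (limma adjusted p = 0.0854) and 0.65 ± 0.36 (-0.16 to 1.47) against TA_1h (limma adjusted p = 0.191). TA arrays separated by class of beta-actin ratio: X59736mRNA_at read 14322 to 15478 in EOM, 4803 to 10392 on the 5 low-ratio TA arrays and 11116 to 13557 on the other 7. EOM read above TA arrays of like ratio. With only the low-ratio arrays as TA the difference from TA_6h was 1.10 (limma adjusted p = 0.0243), and without them 0.27 (adjusted p = 0.0797).

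X59736mRNA_g_at did not fall on those arrays. It read 22997, 23016, 21331 and 23079 on EOM arrays 1 to 4. It read 26175 and 22816, 22333 and 22780, 26700 and 36744, and 30505 and 32052 on TA_6h numbers 1 to 4, and 24931 and 30403, and 24154 and 23576, on TA_1h numbers 1 and 2. EOM overlapped TA_6h and lay below TA_1h. The difference was -0.26 ± 0.16 (log2, SE; -0.63 to 0.10) against TA_6h (limma adjusted p = 0.208) and -0.18 ± 0.20 (-0.63 to 0.26) against TA_1h (limma adjusted p = 0.511). After quantile normalization these were 0.17 and 0.32, so the sign depended on the scaling.

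Within an array X59736mRNA_at stood 0.61 to 0.57 below X59736mRNA_g_at in EOM (log2 gap -0.61 to -0.57), while the gap was -2.71 to -1.36 on the 5 low-ratio TA arrays and -1.39 to -0.75 on the other 7. The EOM gaps lay outside both ranges. Whether RNA quality accounts for the gap in TA was not tested.

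**Figure D3:**
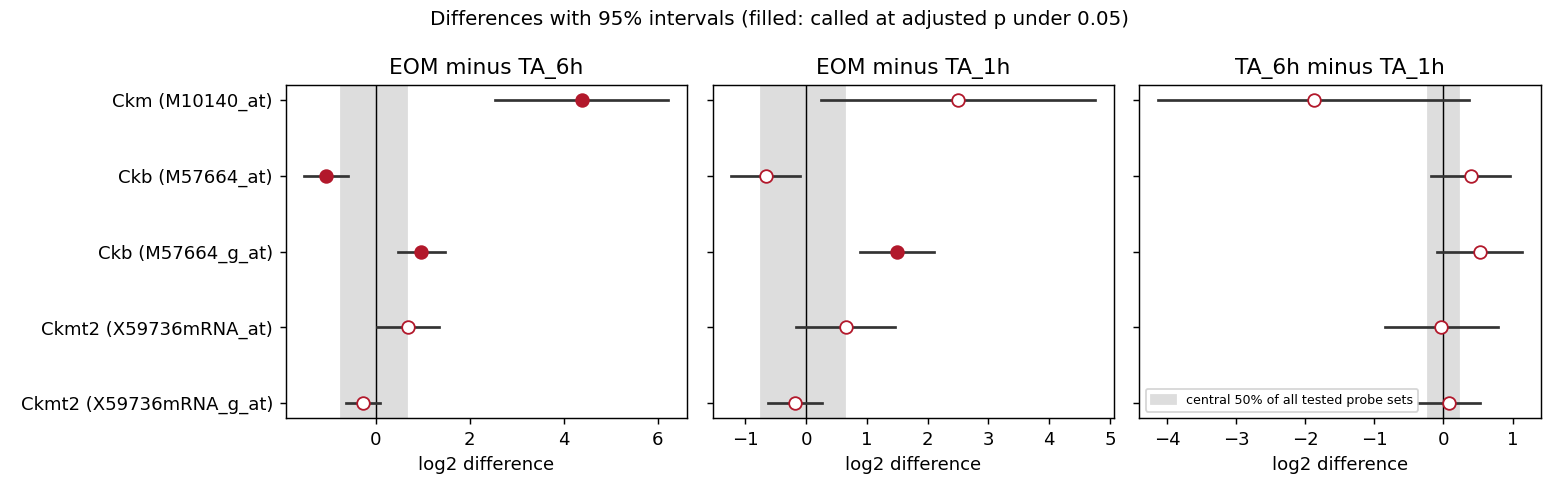
Log2 difference (points) with its 95% interval (lines) for each creatine kinase probe set in EOM minus TA_6h, EOM minus TA_1h and TA_6h minus TA_1h; filled points passed at an adjusted p under 0.05, and the grey band holds the central 50% of all tested probe sets. Ckm (4.39) and M57664_g_at (0.97) are higher and M57664_at (-1.06) is lower in EOM than in TA_6h, and none is filled between the TA groups.

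Between TA_6h and TA_1h none of the 5 probe sets passed, and neither did any of the 7640 tested (0%; limma, 424 at an unadjusted p under 0.05). The differences were -1.88 ± 1.01 (log2, SE) for Ckm, 0.40 ± 0.26 for M57664_at, 0.53 ± 0.27 for M57664_g_at, -0.03 ± 0.36 for X59736mRNA_at and 0.08 ± 0.20 for X59736mRNA_g_at. With 2 TA_1h samples the intervals were wide, and the sign changed among the alternative settings for all but M57664_g_at, which was 0.27 to 0.78 in all 26. Over all tested probe sets, 45 were called without the low-ratio arrays, 57 with that ratio as a batch term and 6 without the arrays of low Gapdh ratio; none was a creatine kinase.

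Within TA, a few genes ran closely with each creatine kinase over the 6 TA samples, all from this platform and scaled alike. For Ckm these were Cox4i1 (a subunit of cytochrome oxidase, Pearson r = 0.995), Rps6 (a ribosomal protein, 0.993) and Dynlt1 (a dynein light chain, 0.987). For M57664_at of Ckb they were Cat (catalase, 0.998), Chordc1 (0.998) and Nol3 (0.980). For X59736mRNA_g_at of Ckmt2 they were Nf1 (neurofibromin, 0.988), H19 (a non-coding RNA, 0.987) and Gas7 (0.983). Of 3315 probe sets, 43, 17 and 16 reached 0.95 with Ckm, Ckb and Ckmt2. The lowest of the 6 Ckm values, TA_6h number 4, was the floor itself on both arrays. For Ckm, TA_6h number 3 and TA_1h number 2 averaged arrays 106-fold and 514-fold apart after flooring. For M57664_at and X59736mRNA_g_at the highest values were those of TA_6h number 3 and TA_6h number 4, whose arrays were all of low beta-actin ratio. How far the correlations of each gene rest on the samples named here was not tested. Over all 10 samples a correlation would mix the difference between EOM and TA with the spread within groups, so none is given.

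Genes that make and carry creatine went both ways. Of 5 measured, 2 were higher and 2 lower in EOM than in TA_6h, where 22.3% of 4317 genes, each represented by its brightest probe set, were called higher and 25.8% lower. Gatm, which makes the creatine precursor guanidinoacetate, was 1.29 ± 0.29 (log2, SE; limma adjusted p = 0.00531) higher and read 190 to 255 in EOM, 45.8 to 153 in TA_6h and 64.8 to 101 in TA_1h. Gamt, which methylates that precursor to creatine, read 347 to 535 in EOM, 656 to 1761 in TA_6h and 513 to 733 in TA_1h, a difference from TA_6h of -1.24 ± 0.23 (limma adjusted p = 0.00156), and its other probe set was also called lower. The creatine transporter Slc6a8 read 1183 to 1789 in EOM, 1127 to 2235 in TA_6h and 1725 to 2470 in TA_1h and did not pass (log2 difference -0.12 from TA_6h, limma adjusted p = 0.673). Slc6a6, the taurine transporter of the same family, was 1.28 higher. Ckmt1, the ubiquitous mitochondrial creatine kinase, read below 0 on all EOM arrays and 230 to 569 in TA_6h on its brightest probe set. With the EOM readings raised to the floor it was 5.90-fold lower in EOM. The other probe set, also below 0 on all EOM arrays, gave a log2 difference of -1.74 (limma adjusted p = 0.00428). Readings below 0 occurred only in EOM, so muscle and probe summary cannot be told apart for Ckmt1. Against TA_1h 1 of these 5 was higher (Gatm) and 1 lower (Ckmt1), where 18.1% of genes were called higher and 19.5% lower.

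Of 6 other adenylate and nucleoside phosphate kinases measured, 2 were higher and 1 lower in EOM than in TA_6h, beside 22.3% higher and 25.8% lower over all genes. Ak4, a kinase of the mitochondrial matrix, read 474 to 813 in EOM, 23.1 to 128 in TA_6h, with 2 of 8 arrays above the floor, and 52.4 to 158 in TA_1h, and was 3.24 ± 0.30 (log2, SE) higher than in TA_6h. Ak3, the GTP:AMP kinase of the matrix, was 0.68 ± 0.23 higher, and Nme6, a nucleoside diphosphate kinase, differed by -1.03 ± 0.18. Nme1, Nme2 and Guk1 did not pass, at log2 differences of 0.04, -0.16 and -0.24. Against TA_1h Ak4 (2.46) was higher and Nme6 (-0.94) lower.

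Of 8 measured genes of AMP and purine handling, 5 were higher and 1 lower in EOM than in TA_6h, beside 22.3% and 25.8% of all genes, and 4 were higher and 1 lower than in TA_1h, beside 18.1% and 19.5%. Ampd1, the AMP deaminase of skeletal muscle fibres, read 1163 to 2146 in EOM, 6354 to 12015 in TA_6h and 4003 to 9921 in TA_1h, a log2 difference from TA_6h of -2.40 ± 0.26 (limma adjusted p = 5.56e-05). Its other probe set gave -0.41 (adjusted p = 0.719), so the fall rests on 1 of 2 readings. Ampd3, the erythrocyte form, was 1.63 ± 0.26 higher, with 5 of 8 TA_6h arrays above the floor. Entpd1, which breaks down ATP outside cells, was 2.56 ± 0.20 higher, and the purine enzymes Hprt1 (1.24), Xdh (1.12) and Aprt (0.80) were higher as well. Immune cell markers summed to 11490 to 16685 in EOM, 3190 to 6116 in TA_6h and 3290 to 3787 in TA_1h. Of 10 tested, 6 were called higher and 1 lower than in TA_6h. The part of immune cells in these differences was not tested.

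**Figure D4:**
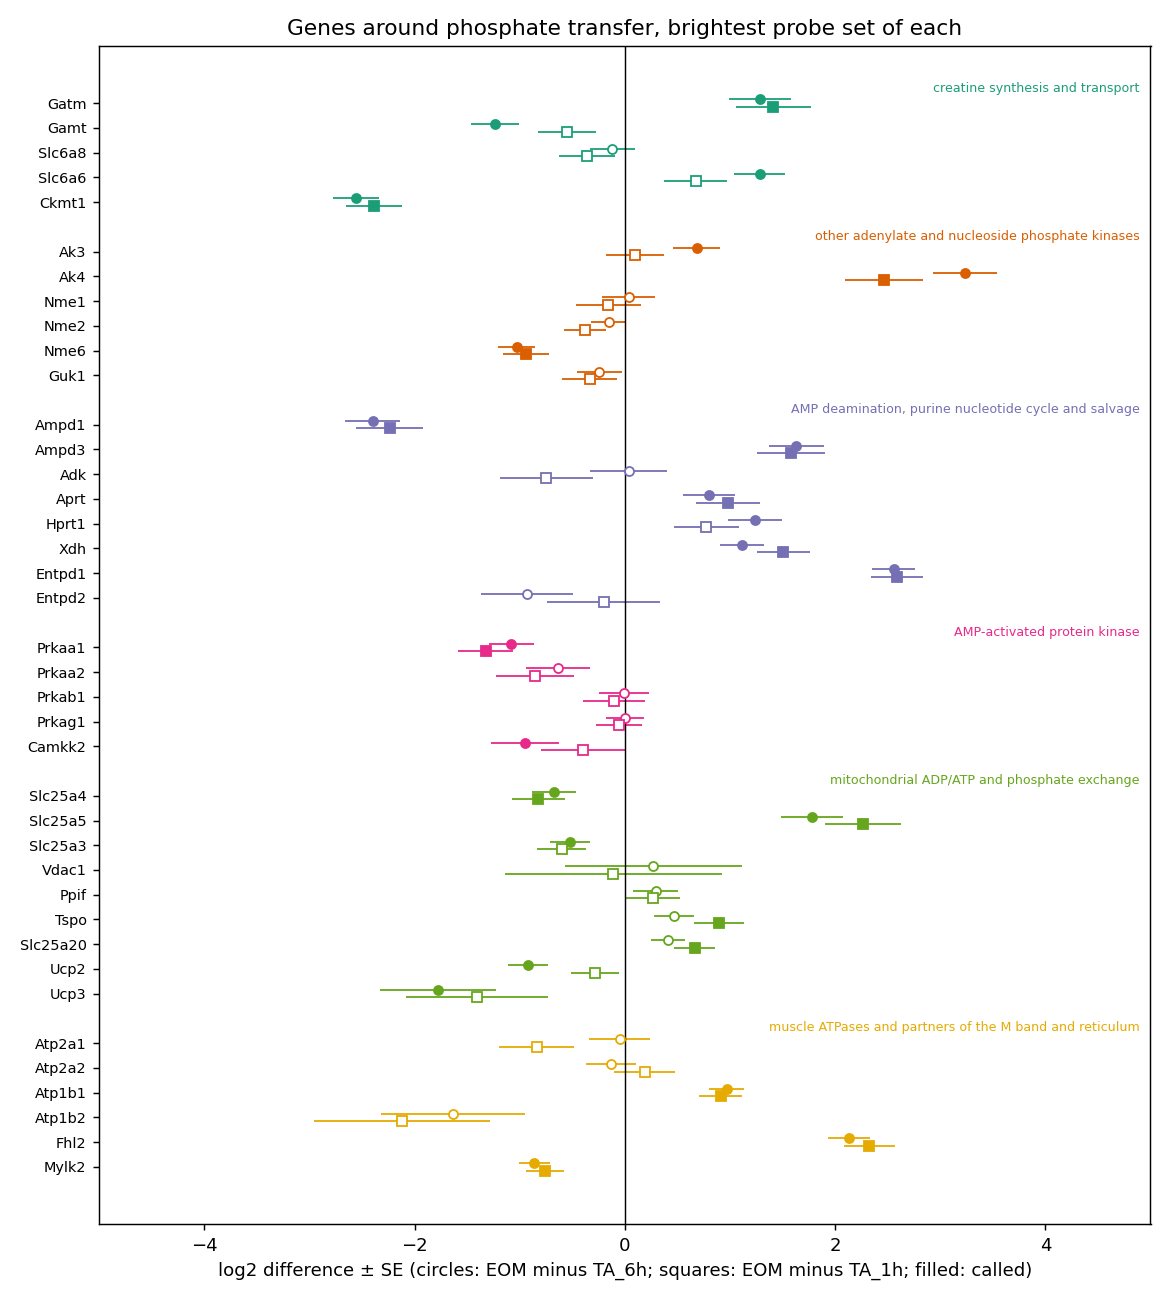
Log2 difference ± SE of the other genes of phosphate transfer in EOM minus TA_6h (circles) and EOM minus TA_1h (squares), by list, each gene by its brightest probe set; filled symbols passed at an adjusted p under 0.05. Ak4 (3.24), Entpd1 (2.56) and Fhl2 (2.13) lie far to the right, and Ampd1 (-2.40) and Ckmt1 far to the left. Ckmt1 reads below 0 on all EOM arrays, and these readings were raised to the floor.

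The AMP-activated protein kinase, which AMP switches on, had none of 5 measured genes called higher and 2 called lower against TA_6h (22.3% and 25.8% of all genes). Its catalytic subunit Prkaa1 (-1.08 ± 0.21) and the upstream kinase Camkk2 (-0.95 ± 0.33) were lower, each with 2 of 4 EOM arrays above the floor. Prkaa2, the catalytic subunit that predominates in muscle, read 271 to 755 in EOM, 528 to 1005 in TA_6h and 682 to 1422 in TA_1h and did not pass (-0.64, limma adjusted p = 0.111). Against TA_1h Prkaa1 (-1.32) was lower.

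The carriers beside Ckmt2 in the inner membrane divided. Of 9 measured genes of ADP, ATP and phosphate exchange, 1 was higher and 4 lower against TA_6h (22.3% and 25.8% of all genes), and 3 higher and 1 lower against TA_1h (18.1% and 19.5%). Slc25a4, the adenine nucleotide carrier of heart and skeletal muscle, read 15603 to 20384 in EOM, 20760 to 49702 in TA_6h and 21604 to 52883 in TA_1h, a difference of -0.68 ± 0.21 (log2, SE) from TA_6h and -0.82 ± 0.25 from TA_1h. Slc25a5, the carrier of dividing cells, was 1.78 ± 0.29 and 2.27 ± 0.36 higher. Against TA_6h the phosphate carrier Slc25a3 (-0.52) and the uncoupling proteins Ucp2 (-0.92, on 1 of 2 probe sets) and Ucp3 (-1.78, likewise) were also lower, and against TA_1h Tspo (0.90) and the carnitine carrier Slc25a20 (0.66) were higher. Vdac1, the outer membrane channel through which phosphocreatine leaves, read 4424 to 5517 in EOM, 660 to 13467 in TA_6h and 688 to 11604 in TA_1h and did not pass.

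Where Ckm delivers ATP, 2 of 6 measured genes were higher and 1 lower against each TA group, beside 22.3% and 25.8% of all genes against TA_6h and 18.1% and 19.5% against TA_1h. Fhl2, a scaffold that holds metabolic enzymes at the sarcomere, read 267 to 300 in EOM, 27.0 to 165 in TA_6h, with 1 of 8 arrays above the floor, and 21.7 to 49.97 in TA_1h, with none of 4; it was 2.13 ± 0.20 (log2, SE) higher than in TA_6h. Atp1b1, a subunit of the sodium pump, was 0.97 ± 0.17 higher, and the myosin light chain kinase Mylk2 differed by -0.86 ± 0.15. Atp1b2, another subunit of the sodium pump, did not pass on its brightest probe set (-1.63, limma adjusted p = 0.0750). Its other probe sets were called lower, at -0.81 and -4.12. The calcium pumps Atp2a1 and Atp2a2, of fast and slow fibres, did not pass, at -0.05 and -0.13 from TA_6h on their brightest probe sets. The 3 other Atp2a2 probe sets disagreed, at 1.85 and 0.59, both called, and -0.83, not called. No gene of the 6 lists passed between TA_6h and TA_1h.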

How the data were processed

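Gene expression was read on single-colour oligonucleotide arrays, 16 in all, each with 8799 probe sets (59 controls). The authors deposited 1 intensity per probe set and array on a linear scale; how probes were summarised is not stated in the labels or file headers. Values under the 25th percentile of all intensities (56.5) were set to it and log-transformed (log2). Probe sets exceeding that floor on 4 or more arrays, 7640 without controls, were fitted together with limma 3.58.1 in R 4.3.3 (lmFit, eBayes; 7 residual and 2.83 prior degrees of freedom), all 3 groups in 1 fit, p-values adjusted by Benjamini-Hochberg over all 7640; every adjusted p is from this tool. Intensities are given with the SD between numbered samples and log2 differences with limma's SE. The number of arrays limits the precision. The fit was tested on simulated data.

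Names come from GEO's platform annotation: 7018 probe sets had 1 symbol, 308 several and 1473 were unlisted; 6994 of the 7018 matched RefSeq by gene number. The members and gene lists were chosen with earlier results of these data known. Named genes were all member probe sets, called genes of each list up to 6, and the 3 genes most correlated with each member's brightest probe set; uncalled list genes are named besides. Promoter windows are from RefSeq on GRCr8. Plots used matplotlib 3.10.9 (Python 3.11.15). Alternatives covered normalization, floor, filter, replicate handling, variance trend and RNA quality; the one on the Gapdh control was added after seeing the data.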

Additional observations from a re-analysis of the deposited data

Results flagged for a closer look

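Ckmt2 on X59736mRNA_g_at had 1 EOM sample apart from the others: EOM 3 read 21331, against 22997 to 23079 on the other EOM arrays, and its gap to the nearest of them was 0.955 of the range on the log2 scale, above the critical value of 0.829 for 4 samples. Of 22 groups looked at this was the 1 so marked, and chance marks about 1 in 20. Without EOM replicate 3 the probe set was still not called against TA_6h.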

How the results depend on the processing

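Both Ckb calls against TA_6h passed under all 27 alternatives (-1.26 to -0.88 for M57664_at, 0.83 to 1.13 for M57664_g_at), as did M57664_g_at against TA_1h (1.24 to 1.75). Ckm passed against TA_6h under 24 of 26 (3.11 to 5.67); requiring all 16 arrays above the floor left no Ckm value. With the 5 low-ratio arrays alone as TA, all 5 probe sets were called against TA_6h, in place of 3, with X59736mRNA_at at 1.10 and X59736mRNA_g_at at -0.47. X59736mRNA_at also passed when arrays were quantile-normalized (0.96) or given the same median (0.79). Against TA_1h, in place of 1, the count was 2 after quantile normalization, with a floor at the 40th percentile, with each array as its own sample, with the ratio as a batch term and with only the low-ratio arrays, and 4 without them; leaving out 1 numbered sample gave 1 to 3, with 2 without EOM replicate 1 and 3 without TA_6h replicate 4. The cause was not tested.

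Some uncalled differences changed sign. Quantile normalization turned X59736mRNA_g_at to 0.17 against TA_6h and 0.32 against TA_1h, and low-ratio arrays alone turned Ckm against TA_1h to -1.66. Leaving out the 4 TA arrays of low Gapdh ratio, chosen after seeing the data, turned Ckm against TA_1h to -0.45 and X59736mRNA_at between the TA groups to 0.27, and left the counts of called probe sets at 3, 1 and 0. Between TA_6h and TA_1h, the fit without low-ratio arrays gave 1.65 for Ckm, -0.020 for M57664_at, 0.057 for X59736mRNA_at and -0.14 for X59736mRNA_g_at. X59736mRNA_at was 0.023 without the unlettered arrays and 0.21 with the batch term. Leaving out 1 numbered sample gave -0.37 to 0.31 for X59736mRNA_at (0.28 without TA_6h replicate 4) and -0.022 to 0.18 for X59736mRNA_g_at, the ends of both ranges without either TA_1h replicate. The fit restricted to low-ratio arrays was not run for this comparison. Deviations of same-numbered EOM and TA_6h samples correlated weakly (0.021 to 0.105). Each value was above those of that EOM sample with the TA_6h samples of other numbers. The deviations of 2 TA_1h samples mirror each other, so correlations with TA_1h cannot decide on pairing. The numbers were not taken as pairs. With the number as a replicate block 3, 1 and 0 probe sets were called against TA_6h, against TA_1h and between the TA groups. In that fit, between the TA groups, X59736mRNA_at was 0.19 and X59736mRNA_g_at -0.0099. Counting all probe sets of the lists in place of the brightest left 27 of 36 counts within 1.5 times. The 36 include the counts between the TA groups, which could not move because no probe set was called there. Among those that moved, the list of muscle ATPases and partners went from 2 higher and 1 lower to 6 and 3 against TA_6h. Against TA_1h it went from 2 and 1 to 6 and 2.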
